A study of Mus musculus with 53 samples.

Results

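Lysosomes are the acidic compartments in which macrophages break down what they engulf. The RNA levels of 47 genes of this compartment were followed in bone marrow-derived macrophages (BMDMs) during exposure to interleukin-4 (IL-4), the cytokine that drives alternative polarization. The genes were taken by name from the deposited expression tables, which listed 23847 loci. They comprised 9 cathepsins and related proteases, 11 glycosidases, 5 sulfatases, 9 genes of lipid handling, 6 membrane proteins, 2 transcriptional regulators and 5 subunits of the proton pump. All 47 reached 1 FPKM (fragments scaled to transcript length and to library size) in at least 1 sample and were among the 11146 loci tested. They lay on 19 chromosomes.

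BMDMs were obtained by culturing marrow of WT and Stat6-/- mice aged 8 to 12 weeks for 6 days in medium with L929 cell supernatant, a source of M-CSF. STAT6 is the transcription factor activated by the IL-4 receptor, and the knockout was a whole-body one on a C57BL/6 background. Each genotype was sampled untreated at 0 h and, at 1, 3, 6 and 24 h, with 20 ng/ml IL-4 or as a time-matched control without it. The 53 samples were 4 per WT group, 3 for WT at 24 h of IL-4 (replicate 1 of that group is not analysed here) and 2 per Stat6-/- group.

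The lysosome is kept acidic by the vacuolar ATPase, a rotary pump whose cytosolic V1 sector hydrolyses ATP and whose membrane V0 sector carries the protons. Cathepsins, glycosidases, sulfatases and lipases work at this low pH and are delivered mainly by the mannose 6-phosphate receptors. TFEB and TFE3 are basic helix-loop-helix factors of the MiT/TFE family that bind E-boxes in the promoters of many lysosomal genes. Inherited loss of single enzymes of this set causes lysosomal storage diseases.

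Relative depth, recovered from low loci, ran from 0.706 to 1.546 times the median sample, and FPKM sums ran from 385888.9 to 464914.9. The targeted gene was lower in the knockout but not absent, with Stat6 at 58.7 to 90.6 FPKM in the 35 WT samples and 14.3 to 24.0 FPKM in the 18 Stat6-/- samples. Arg1, a marker of alternative polarization, stood at 99.3, 56.8 and 40.2 FPKM in the WT samples with 24 h of IL-4 and at no more than 0.203 FPKM in any Stat6-/- sample. Macrophage markers such as Csf1r were present throughout, except that Lyz2 was listed at 0 in 7 samples, with a median of 16530 FPKM over all samples. Markers of dendritic cells, lymphocytes, stroma and erythroid cells were below 1 FPKM. Neutrophil markers were present in every sample, with sums of 216 to 1031 FPKM, and mast cell or basophil markers summed to 0.269 to 2.59 FPKM. In WT libraries the mean absolute distance of all tested loci from their group median was 0.038 to 0.196 on the log2 scale. The largest belonged to replicate 1 of the 0 h control. The knockout pairs were less alike. For example, at 0 h Ctsc was at 160 FPKM in Stat6-/- replicate 1 and at 361 FPKM in replicate 2, and a gap of this kind recurred at every time. In bulk RNA, fewer cells of a type and less RNA per cell cannot be told apart.

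In untreated WT BMDMs at 0 h the levels of the 47 genes spanned a wide range. The sulfatase Arsb was the lowest, at 10.8 ± 1.64 FPKM (SD, n = 4). Psap, the precursor of the saposins that present sphingolipids to their hydrolases, was the highest, at 5369 ± 570 FPKM. Next to it stood 3 cathepsins, Ctss at 4329 ± 544, Ctsd at 3683 ± 300 and Ctsb at 2958 ± 104 FPKM, whose ranges over the 4 samples lay close to each other, those of Ctss and Ctsd overlapping. Together the 47 genes took 6.31% to 6.68% of the FPKM sum at this time. FPKM is a level per transcript length, so these comparisons between genes are on that scale.

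**Figure D1:**
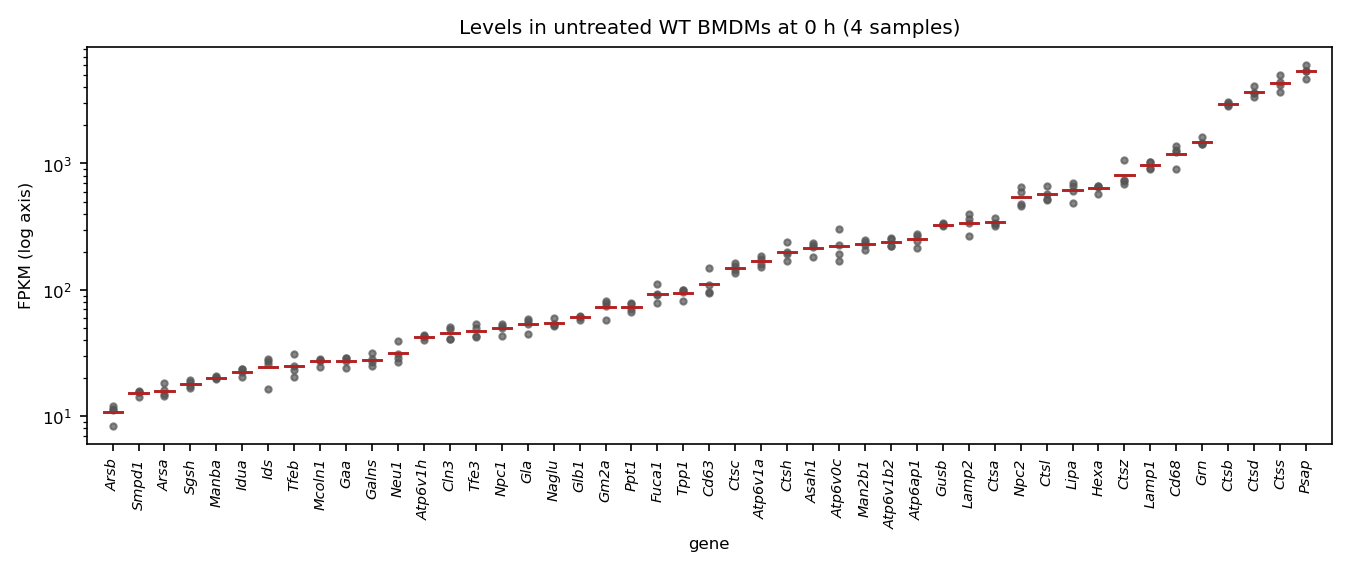
FPKM of the 47 genes in the 4 untreated WT samples at 0 h, on a log axis, with 1 point per sample and a red line at the mean. The genes run from Arsb at 10.8 FPKM to Psap at 5369 FPKM, and Psap, Ctss, Ctsd and Ctsb stand together at the top.

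The main comparison asked how IL-4 changed these genes in WT cells at each time. Changes are differences of log2(FPKM + 1) between IL-4 and the time-matched control, so that 1 is a doubling for well-expressed genes, and a gene passed the test at an adjusted p under 0.05 (limma, all 53 samples in 1 fit, Benjamini-Hochberg over 11146 loci). At 1 h only the 2 regulators, Tfeb and Tfe3, passed, both lower, and no member passed higher. At 3 h Atp6v1b2 and Ids passed higher and 9 genes passed lower. At 6 h there were 4 higher and 9 lower. At 24 h there were 12 higher and 13 lower, Psap among the lower, and 14 of these 25 (56%) had passed at no earlier time, as had 2601 of the 6131 loci that passed at 24 h (42.4%).

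These counts were read against all tested loci. At 1 h 5.67% of loci passed higher and 3.72% lower. At 3 h the shares were 16.4% and 12.5%, and at 6 h 22% and 19.2%. At 24 h 23.4% of loci passed higher and 31.6% lower. Over the 4 times, in order, their median change was -0.12, -0.13, -0.09 and 0.03, beside -0.02, 0.01, 0.00 and -0.07 over all loci. These medians are descriptions and carry no test. With quantile normalization they were -0.02 at 1 h and -0.11 at 24 h, beside -0.03 and -0.01, so that the order relative to all loci turned at both times. That scaling also gave 14 members lower at both 3 and 6 h, and equal FPKM sums gave 6 and 8, with 2 and 4 higher in each case. With the replicate number as a block, 23 members passed at 3 h (5 higher, 18 lower) and 21 at 6 h (7 higher, 14 lower). Here and below, the shares of all loci are those of the main fit. Counts of members under other settings have no such share beside them and are not read against all loci.

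Calls of a 2-fold change were few among the members, as they were among all loci. Atp6v1b2 passed with at least a doubling at 3, 6 and 24 h, beside 2.61%, 3.18% and 3.91% of all loci called 2-fold higher at these times. Ctsc, Sgsh and Psap were called 2-fold lower at 24 h, where 4.58% of loci were. The Psap value rests on 1 library and is treated with the lipid genes. With that value treated as missing, a choice made after seeing the data, 13 members were higher and 12 lower at 24 h.

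**Figure D2:**
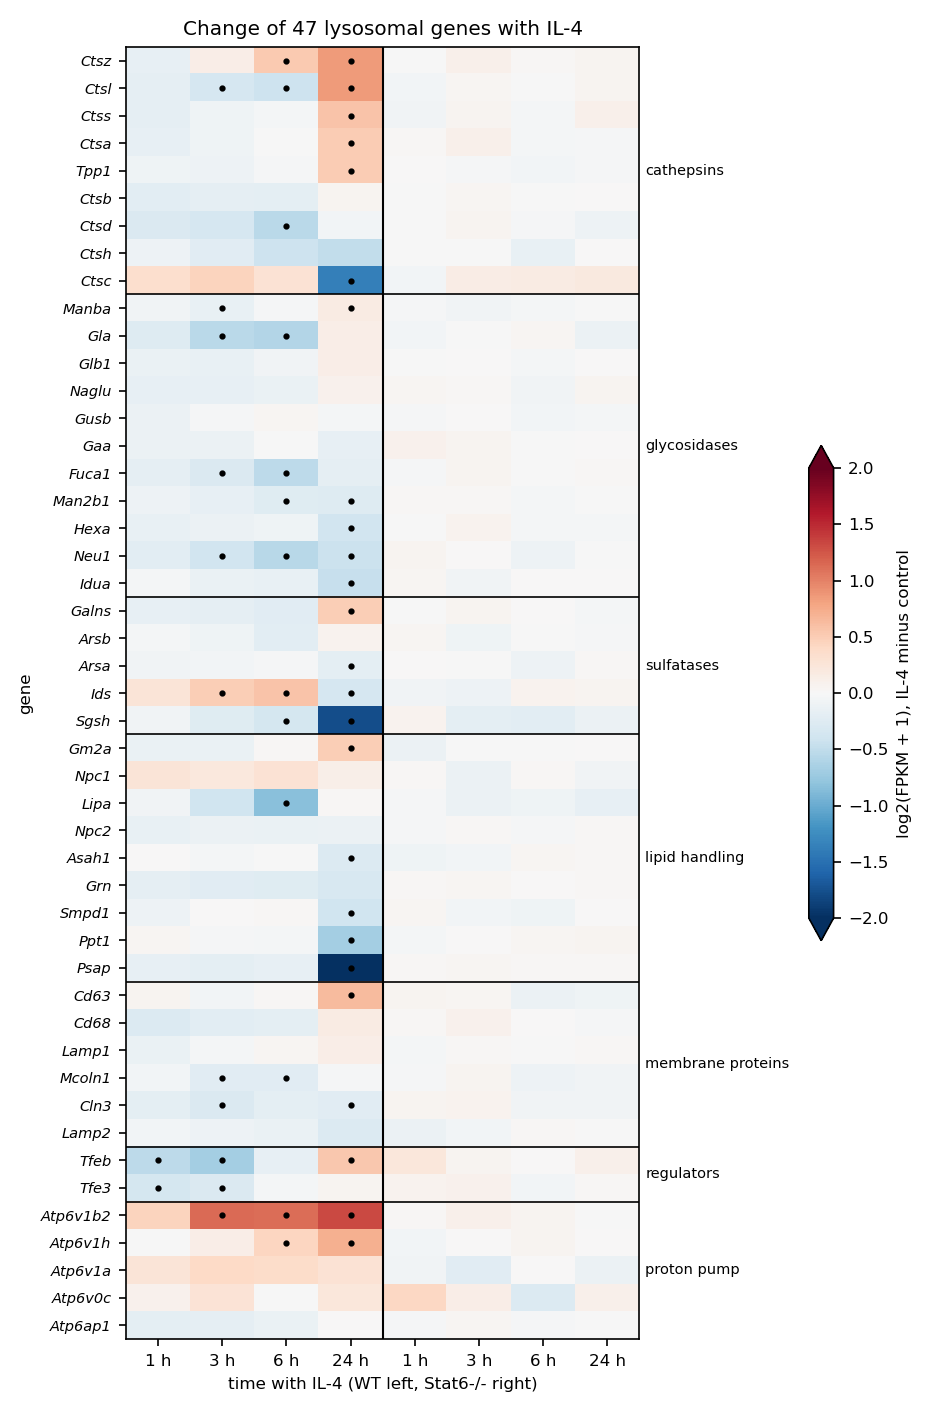
Change with IL-4 of each of the 47 genes, as log2(FPKM + 1) of IL-4 minus control, at 1, 3, 6 and 24 h in WT (left block) and Stat6-/- (right block). Black dots mark an adjusted p under 0.05, of which there are 2, 11, 13 and 25 in the WT columns and none in the Stat6-/- columns.

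The regulators were the members that passed at 1 h. Without passing, Atp6v1b2, Atp6v1a, Ids and Npc1 were then also above all controls in every IL-4 sample. Of the members given by sample, Psap was below all controls in every IL-4 sample, also without passing. With only the 1 h groups in the fit 5 members passed, and with the replicate block 8. Tfeb, which encodes the best known activator of lysosomal genes, was at 16.5, 15.1, 19.7 and 15.3 FPKM after 1 h of IL-4 in WT cells and at 27.1, 21.6, 25.9 and 23.2 FPKM in the controls. After 3 h it was at 14.7, 10.8, 15.3 and 14.2 FPKM with IL-4 against 23.2, 20.8, 24.2 and 22.3 FPKM. The groups did not overlap at either time, and the log2 changes were -0.53 ± 0.137 (SE, adjusted p = 0.00627) and -0.69 ± 0.137 (adjusted p = 0.000111). At 6 h the samples overlapped, at 19.0, 18.3, 21.8 and 26.9 FPKM against 21.2, 23.8, 24.4 and 26.6 FPKM (-0.16, adjusted p = 0.361). At 24 h the order had turned, with 30.5, 34.9 and 35.1 FPKM under IL-4 above 24.8, 20.8, 22.4 and 23.3 FPKM in the controls, a rise of 0.53 ± 0.147 (adjusted p = 0.00251). The change of the Tfeb response from 6 to 24 h was itself 0.70 (SE 0.201, adjusted p = 0.00793).

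Tfe3, the close relative of Tfeb, was lower at 1 and 3 h. It stood at 35.4, 33.8, 39.9 and 38.6 FPKM after 1 h of IL-4 and at 46.4, 46.4, 47.2 and 49.5 FPKM in the controls, a change of -0.35 ± 0.0775 (adjusted p = 0.00108). With FPKM sums made equal this adjusted p was 0.0662. After 3 h the IL-4 samples were at 45.6, 38.3, 45.5 and 49.8 FPKM and the controls at 55.2, 52.0, 52.1 and 59.8 FPKM (-0.29, adjusted p = 0.00355). At 6 and 24 h Tfe3 did not pass, with changes of -0.04 and 0.05.

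TFEB and TFE3 bind the E-box CACGTG and its extended form TCACGTGA, the core of the CLEAR element. The promoters of the members were therefore searched for both on either strand, along with the palindrome TTCNNNNGAA that STAT6 prefers. The windows were those of RefSeq on GRCm38.p6, from 250 bases before to 50 bases after each start, and 40 of the 47 genes had one. Those without one were Asah1, Atp6v1b2, Atp6v1h, Ctsb, Ctsh, Galns and Npc1. CACGTG was present in 13 of the 40 (32.5%), against 8.1% of 27025 genes and 7.2% of 32851 windows. TCACGTGA, which contains CACGTG, was present in 6 (15%) against 1.1% of genes and 1.0% of windows, and TTCNNNNGAA in 3 (7.5%) against 8.0% and 7.0%. The 6 genes with TCACGTGA are shown first, with that core in capitals and the strand of the gene after the coordinates. A match is a description of letters and not of binding. The windows of Ctsa and Cln3 lie inside the loci of these genes and belong to internal starts.
Ctsa, chr2:164833740-164833772, plus strand: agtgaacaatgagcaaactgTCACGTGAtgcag
Ctsd, chr7:142387899-142387946, minus strand: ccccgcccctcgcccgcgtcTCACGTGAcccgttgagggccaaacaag
Cln3, chr7:126583331-126583378, minus strand: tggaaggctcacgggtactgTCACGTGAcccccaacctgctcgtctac
Mcoln1, chr8:3500453-3500500, plus strand: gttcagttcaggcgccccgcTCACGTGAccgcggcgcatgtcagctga
Gla, chrX:134601206-134601253, minus strand: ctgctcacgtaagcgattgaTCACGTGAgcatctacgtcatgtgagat
Atp6v1a, chr16:44139364-44139411, minus strand: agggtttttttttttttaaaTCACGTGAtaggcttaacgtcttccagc

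These 6 genes did not share a course. After 3 h of IL-4 the changes were -0.54 for Gla, -0.28 for Cln3 and -0.23 for Mcoln1, which passed, and -0.34 for Ctsd, -0.09 for Ctsa and 0.39 for Atp6v1a, which did not. After 24 h Ctsa (0.50) and Cln3 (-0.23) passed, and the other 4 did not. The windows of Lamp1, Sgsh and Ctsl follow, with CACGTG in capitals, since Lamp1 held the most copies and the other 2 genes are described in detail. Lamp1 held it at 4 places.
Lamp1, chr8:13159080-13159160, plus strand: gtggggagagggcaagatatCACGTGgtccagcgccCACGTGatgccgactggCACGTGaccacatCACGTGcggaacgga
Sgsh, chr11:119355514-119355559, minus strand: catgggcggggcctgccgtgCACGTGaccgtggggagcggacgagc
Ctsl, chr13:64370731-64370770, minus strand: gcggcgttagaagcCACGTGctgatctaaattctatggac

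The palindrome TTCNNNNGAA occurred in the windows of Cln3, Gm2a and Tfeb. All 3 are shown, with the match in capitals. The Tfeb window lies well inside its locus (chr17:47737037-47792416) and belongs to an internal start, as does that of Cln3. At 24 h Gm2a and Tfeb were higher and Cln3 lower, and at 3 h Tfeb and Cln3 were lower.
Cln3, chr7:126583452-126583486, minus strand: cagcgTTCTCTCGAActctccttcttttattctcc
Gm2a, chr11:55097906-55097955, plus strand: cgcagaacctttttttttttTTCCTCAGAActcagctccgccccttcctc
Tfeb, chr17:47785494-47785539, plus strand: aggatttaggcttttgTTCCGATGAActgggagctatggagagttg

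The cathepsins were higher mainly at 24 h. Of the 9 proteases, 5 passed higher at 24 h and 1 lower, with a median change of 0.50, whereas at 3 h 1 was lower and at 6 h 1 was higher and 2 lower. Of all loci, 23.4% passed higher and 31.6% lower at 24 h. At 3 h 12.5% of loci passed lower, and at 6 h 22% passed higher and 19.2% lower. Ctsl, a cysteine endopeptidase, changed sides. After 6 h it was at 430, 452, 439 and 426 FPKM with IL-4 and at 517, 698, 591 and 545 FPKM without, and after 24 h at 1430, 1505 and 1340 FPKM with IL-4 and at 799, 784, 798 and 774 FPKM without. All IL-4 samples were therefore below all controls at 6 h and above them at 24 h. The changes were -0.42 ± 0.105 (adjusted p = 0.00127) and 0.85 ± 0.113 (adjusted p = 5.82e-08), and their difference of 1.27 passed the test between times (adjusted p = 2.99e-08). At 3 h Ctsl was also lower (-0.34, adjusted p = 0.0122), a call that was lost without replicate 2 of the 3 h control (adjusted p = 0.0666).

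Ctsz, a carboxypeptidase also known as cathepsin X, rose from 6 h on. At 6 h it was at 865, 834, 1004 and 1041 FPKM with IL-4 and at 548, 693, 679 and 671 FPKM without, and at 24 h at 1156, 1267 and 1309 FPKM against 739, 534, 725 and 774 FPKM. The groups were apart at both times, by 0.53 ± 0.163 (adjusted p = 0.00795) and 0.86 ± 0.176 (adjusted p = 9.23e-05). Ctss, the endopeptidase that trims the invariant chain of MHC class II, was at 5071, 5198 and 4932 FPKM at 24 h of IL-4 and at 3658, 2930, 3621 and 3426 FPKM in the controls. All IL-4 samples were above all controls, by 0.58 ± 0.166 (adjusted p = 0.0036). Without the filter on low values its adjusted p at 24 h was 0.0742.

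Ctsc, the dipeptidyl peptidase that activates granule serine proteases, went the other way. At 24 h it was at 44.7, 51.2 and 58.4 FPKM under IL-4 and at 153, 139, 139 and 107 FPKM in the controls, a fall to 0.382 of the control mean. The log2 change was -1.37 ± 0.384 (adjusted p = 0.00288). At 3 h the 4 IL-4 samples, at 197, 191, 188 and 221 FPKM, had all been above the controls at 148, 150, 142 and 141 FPKM, but with the shared spread of the fit this did not pass (0.45, adjusted p = 0.399). The difference between the 24 h and the 6 h response was -1.66 (SE 0.523, adjusted p = 0.0148). The neutrophil markers summed to 216 to 313 FPKM at 24 h of IL-4 and to 436 to 600 FPKM in the 24 h controls. Of the 5 markers 3 were lower and none higher, beside 31.6% and 23.4% of all loci. S100a8, S100a9 and Ngp were the highest, with medians over all samples of 190, 215 and 50.5 FPKM, and those of Elane and Mpo were 5.26 and 7.65 FPKM. At 3 h the marker sums were 349 to 433 FPKM with IL-4 and 318 to 437 FPKM in the controls. Their part in the Ctsc change was not tested.

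Among the remaining proteases, Ctsa, a serine carboxypeptidase that also protects Neu1 and Glb1, rose from 277 ± 30.8 to 391 ± 16.1 FPKM at 24 h. Tpp1, tripeptidyl peptidase, rose from 87.7 ± 4.51 to 124 ± 3.58 FPKM, with the smallest standard error of the group (0.50 ± 0.0588, adjusted p = 4.51e-09). The aspartyl protease Ctsd fell at 6 h, from 3558 ± 283 to 2445 ± 107 FPKM (-0.54, adjusted p = 0.00428), and was level with its control at 24 h (-0.06). Ctsb did not pass at any time, with changes between -0.20 and 0.06. Ctsh was lower in every 24 h IL-4 sample than in every control but did not pass (-0.49 ± 0.225, adjusted p = 0.064).

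**Figure D3:**
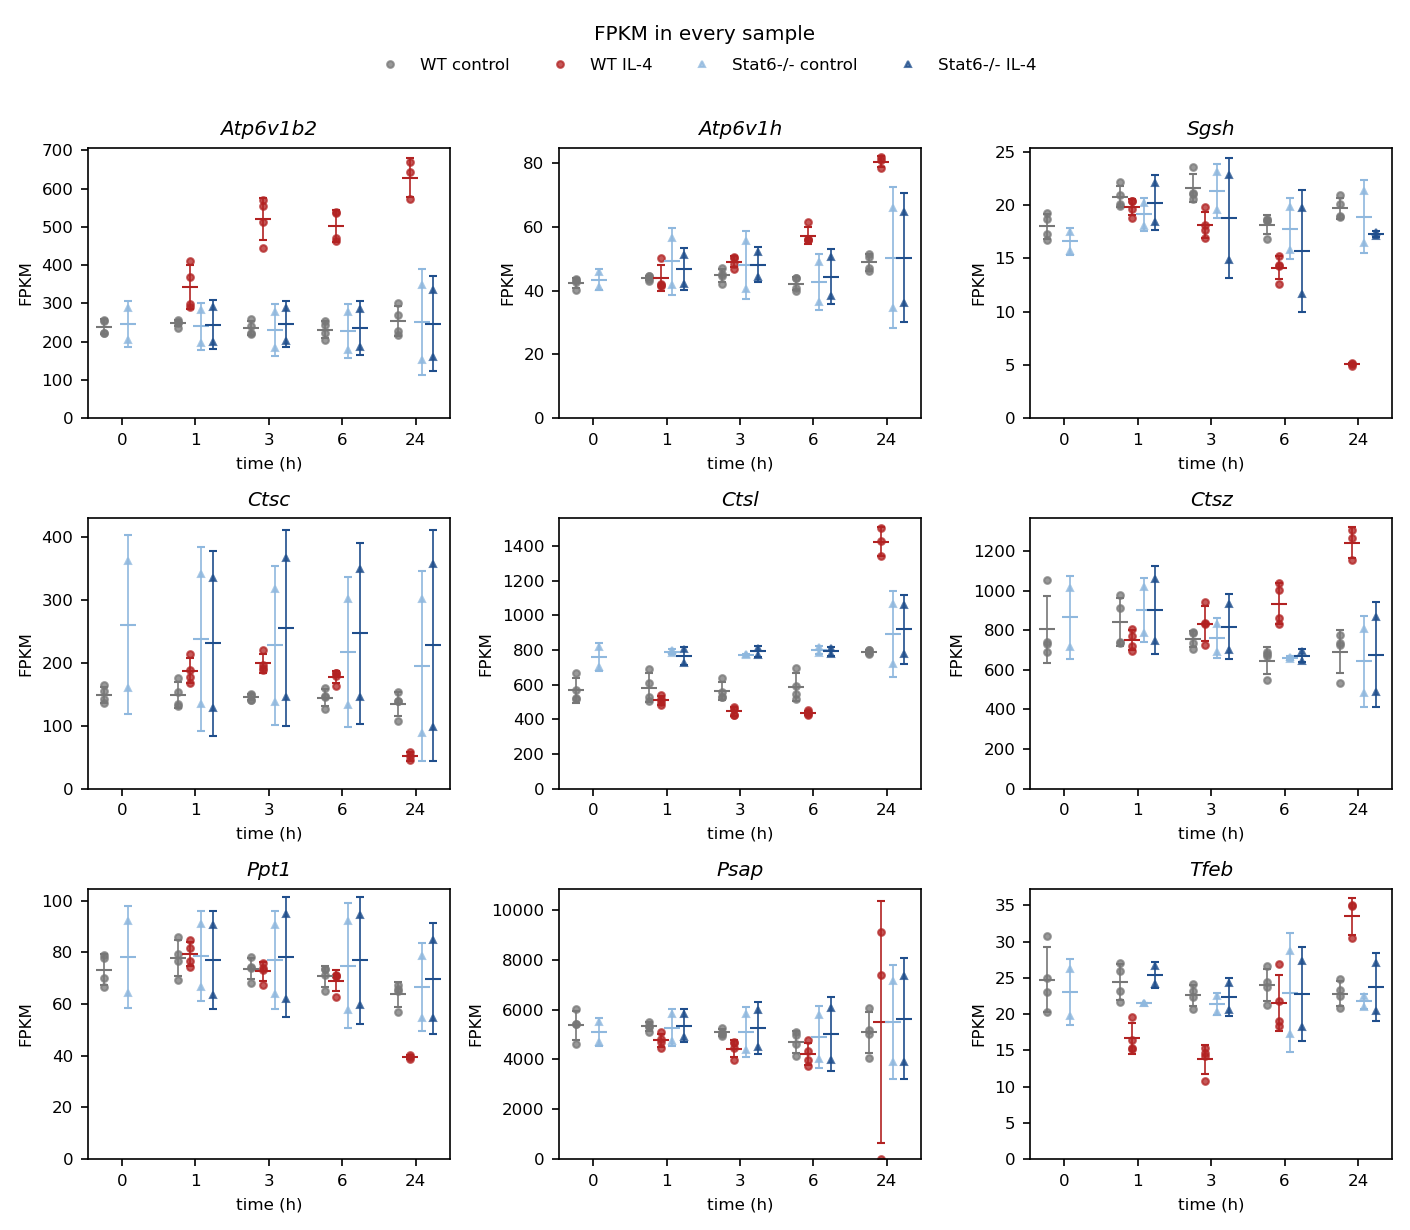
FPKM in every sample of 9 of the 47 genes by time, with WT as circles (grey control, red IL-4) and Stat6-/- as triangles (light blue control, dark blue IL-4), and bars at the mean ± SD. Red circles stand above all grey ones of the same time from 1 h on for Atp6v1b2. For Sgsh they lie below from 3 h on, with the widest gap at 24 h. For Ctsl they lie below at 3 and 6 h and above at 24 h, and for Ctsc the reverse. The 2 Stat6-/- replicates lie far apart for Ctsc and Ppt1, and 1 Psap value stands at 0.

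Among the 5 pump subunits, 1 was higher at 3 h and 2 at 6 and 24 h, and none was lower. Of all loci, 16.4%, 22% and 23.4% passed higher at 3, 6 and 24 h. Atp6v1b2, the B subunit of V1 that takes part in the catalytic sites and is the isoform found in most cells, was at 297, 291, 370 and 411 FPKM after 1 h of IL-4 and at 237, 252, 250 and 255 FPKM without (0.45, adjusted p = 0.197). After 3 h it was at 513, 445, 554 and 571 FPKM against 222, 220, 242 and 259 FPKM. After 24 h it was at 573, 643 and 670 FPKM against 227, 216, 270 and 300 FPKM. All IL-4 samples exceeded all controls at each of these times, and the changes at 3, 6 and 24 h were 1.14 ± 0.202 (adjusted p = 2e-05), 1.12 ± 0.202 (adjusted p = 1.88e-05) and 1.32 ± 0.218 (adjusted p = 3.55e-06). The mean at 24 h was 2.48 times the control mean.

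Atp6v1h, the H subunit that couples V1 to V0, followed more slowly. It was at 56.2, 55.9, 55.8 and 61.4 FPKM after 6 h of IL-4 and at 40.1, 40.8, 43.9 and 44.1 FPKM without, and at 78.6, 81.0 and 82.0 FPKM after 24 h against 46.3, 47, 50.6 and 51.6 FPKM. The samples were apart at both times, by 0.43 ± 0.134 (adjusted p = 0.00846) and 0.71 ± 0.145 (adjusted p = 8.3e-05). The catalytic A subunit Atp6v1a was higher in all IL-4 samples than in all controls at 3, 6 and 24 h but did not pass (0.39, 0.36 and 0.30, adjusted p = 0.0545, 0.0616 and 0.136). Atp6v0c, the proteolipid of the V0 ring, and the accessory protein Atp6ap1 did not pass at any time. Of the exon sequence of Atp6v0c, 10.8% of 50-base stretches recur elsewhere in the annotation, mainly in the pseudogene Atp6v0c-ps2, so that its level is uncertain.

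The remaining subunits were taken from a list of 16 pump genes that are not among the 47, of which 14 could be tested. At 24 h 8 passed higher and 1 lower, beside 23.4% and 31.6% of all loci. Atp6v0d2, the d isoform typical of osteoclasts and fused macrophages, was at 392, 421 and 407 FPKM with IL-4 and at 23.5, 25.3, 31.2 and 62.5 FPKM without, and at 6 h at 54.4, 55.0, 53.8 and 86.4 against 14.0, 11.5, 14.4 and 23.8 FPKM. No IL-4 sample came near a control at 24 h, and the change was 3.59 ± 0.72 (adjusted p = 6.77e-05). Replicate 4 was the highest control at each of these times. Atp6v0a1, an isoform of the V0 a subunit, was at 268, 236, 258 and 282 FPKM at 3 h and 371, 360 and 380 FPKM at 24 h of IL-4, against 86.1, 83.8, 78.5 and 89.1 and 78.9, 72.4, 83.5 and 104 FPKM. Its changes were 1.62 at 3 h and 2.13 at 24 h (adjusted p = 5.89e-11 and 3.19e-13).

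Another V0 a isoform, Tcirg1 (a3), passed lower at 3 h (-0.67) and 6 h (-0.46) and higher at 24 h (0.89). At 24 h the other subunits that passed higher were Atp6v1e1 (0.61), Atp6v1c1 (0.50), Atp6v0e (0.49), Atp6v0a2 (0.47) and Atp6v1d (0.31). Atp6v1g2, a G isoform known mainly from neurons, passed lower (-0.77). Of these genes, Atp6v0d2 and Atp6v0a1 were selected by a fixed rule on size, and the others were named after their values were seen.

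**Figure D4:**
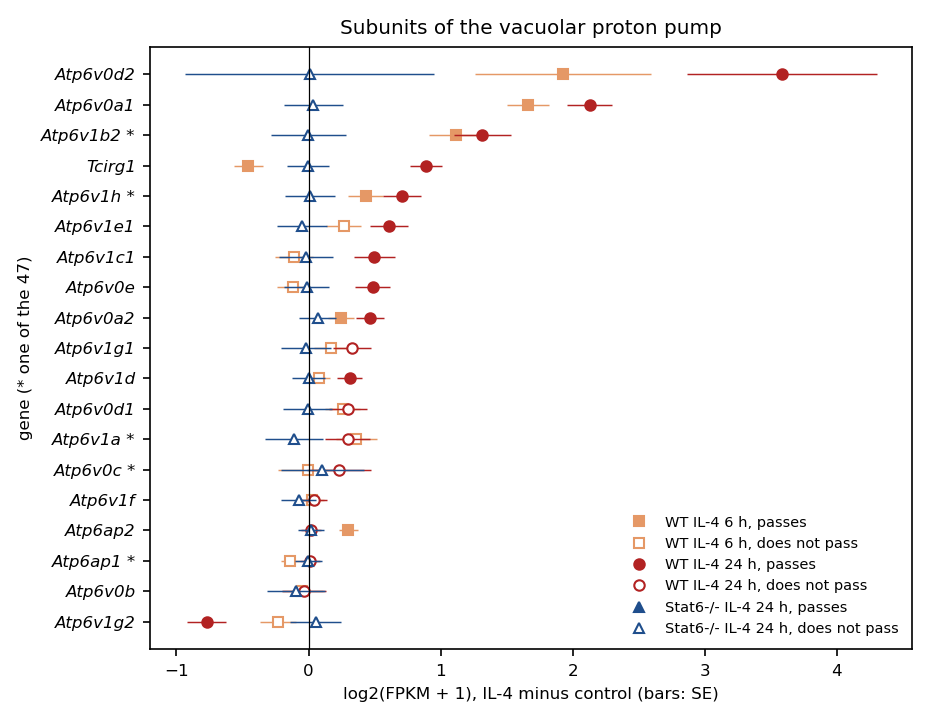
Change with IL-4 of 19 tested subunits of the vacuolar proton pump, as log2(FPKM + 1) of IL-4 minus control, at 6 h (orange squares) and 24 h (red circles) in WT and at 24 h in Stat6-/- (blue triangles), with bars of 1 SE and filled symbols for an adjusted p under 0.05. Atp6v0d2, Atp6v0a1 and Atp6v1b2 lie furthest right at 24 h, at 3.59, 2.13 and 1.32, and the Stat6-/- triangles lie near 0.

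The glycosidases, which remove sugars from glycoproteins, glycolipids and glycosaminoglycans, passed lower in 4 of 11 cases at each of 3, 6 and 24 h, where 12.5%, 19.2% and 31.6% of all loci did. At 3 h these were Gla, Neu1, Fuca1 and Manba, at 6 h Gla, Neu1, Fuca1 and Man2b1, and at 24 h Hexa, Idua, Man2b1 and Neu1, and the only one to pass higher was Manba at 24 h. Gla, alpha-galactosidase A, fell from 51.5 ± 1.74 to 34.0 ± 0.508 FPKM at 6 h (-0.58 ± 0.143, adjusted p = 0.00101), and at 24 h did not pass (0.14). Its response at 24 h differed from that at 6 h by 0.72 (adjusted p = 0.00866). Neu1, the lysosomal sialidase, passed lower at 3, 6 and 24 h, and at 6 h stood at 21.1 ± 1.32 FPKM against 31.5 ± 1.58 FPKM (-0.55, adjusted p = 1.29e-06). Fuca1, alpha-fucosidase, was at 59.9 ± 6.39 against 86.6 ± 8.87 FPKM at 6 h.

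Idua, alpha-iduronidase, was the glycosidase with the largest drop at 24 h, from 24.0 ± 1.22 to 17.1 ± 0.912 FPKM (-0.47 ± 0.0737, adjusted p = 1.64e-06). Hexa, the alpha subunit of beta-hexosaminidase, went from 691 ± 70.4 to 528 ± 33.9 FPKM (-0.39, adjusted p = 0.0212), and Man2b1, alpha-mannosidase, from 233 ± 21.7 to 193 ± 1.49 FPKM. Manba, beta-mannosidase, changed by -0.15 at 3 h and 0.16 at 24 h. Both Manba calls are weak, since 7 of 8 and 4 of 7 omissions of a library raised the adjusted p to 0.05 or more, up to 0.121 and 0.104. The same held for Fuca1 at 3 h (7 of 8, up to 0.168) and, in 2 of 7 cases, for Hexa at 24 h, where leaving out IL-4 replicate 2 or control replicate 3 gave up to 0.0896. Gaa, Glb1, Gusb and Naglu, which degrade glycogen, beta-galactosides, glucuronides and heparan sulfate, did not pass at any time, with changes between -0.17 and 0.13.

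Sulfatases remove sulfate from glycosaminoglycans and sulfatides, and 3 of the 5 were lower at 24 h and 1 higher. Of all loci, 31.6% passed lower and 23.4% higher at that time. Sgsh, the sulfamidase that desulfates heparan sulfate, was at 4.94, 5.15 and 5.12 FPKM after 24 h of IL-4 and at 20.9, 18.8, 20.1 and 19.0 FPKM in the controls. The IL-4 samples lay close together, with a mean at 0.257 of the control mean and no overlap, and the change was -1.77 ± 0.113 (adjusted p = 6.3e-16). At 6 h the gap was smaller but already free of overlap, at 14.4, 12.6, 15.2 and 14.3 FPKM against 18.6, 16.8, 18.5 and 18.7 FPKM (-0.34, adjusted p = 0.00708). The step between the 6 h and the 24 h response was -1.43 (SE 0.153, adjusted p = 2.06e-09).

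Ids, iduronate-2-sulfatase, rose first and fell later. It was at 37.3 ± 1.65 FPKM after 6 h of IL-4 against 24.7 ± 2.30 FPKM (0.58 ± 0.104, adjusted p = 1.99e-05), and at 19.1 ± 1.87 FPKM after 24 h against 24.2 ± 1.81 FPKM (-0.33, adjusted p = 0.0126). The difference between those responses was -0.91 (adjusted p = 1.52e-05). The 24 h call was lost without IL-4 replicate 3 or 4 (adjusted p up to 0.0613). Galns, which desulfates keratan sulfate, rose at 24 h from 21.5 ± 1.71 to 30.6 ± 1.15 FPKM (0.49, adjusted p = 0.00196). Arsa, the sulfatide sulfatase, was lower at 24 h (-0.19, adjusted p = 0.0385), and this call was lost without IL-4 replicate 3 or control replicate 1, 2 or 3 (adjusted p up to 0.194). Arsb did not pass at any time.

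Among the 9 genes of lipid handling, 4 passed lower at 24 h and 1 higher with the Psap value of 0 included, and 3 lower and 2 higher with it treated as missing. Of all loci, 31.6% passed lower and 23.4% higher. Ppt1, the thioesterase that removes palmitate from proteins, was at 39.4, 40.3 and 38.7 FPKM with 24 h of IL-4 and at 67.5, 65.9, 65.1 and 56.8 FPKM without. At 6 h the samples overlapped, at 70.7, 71.4, 71.0 and 62.8 against 73.4, 73.4, 71.3 and 65.0 FPKM. The drop at 24 h was clear of the controls, at -0.68 ± 0.163 (adjusted p = 0.000631). Smpd1, acid sphingomyelinase, went from 13.6 ± 1.48 to 9.96 ± 0.284 FPKM (-0.40, adjusted p = 0.000282) and Asah1, acid ceramidase, from 244 ± 4.67 to 203 ± 2.70 FPKM (-0.27, adjusted p = 0.00104). Gm2a, the activator protein that hands GM2 ganglioside to hexosaminidase A, rose from 72.8 ± 6.93 to 102 ± 8.79 FPKM (0.49 ± 0.0844, adjusted p = 7.24e-06).

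Psap cannot be summarised by its main value. After 24 h of IL-4 it was at 7405 FPKM in replicate 2 and 9102 FPKM in replicate 4 and was listed at 0 in replicate 3, while the controls were at 5029, 4050, 5196 and 6077 FPKM. The 2 libraries with a value lay above all 4 controls, and no other member was listed at 0 in any sample. The fit gave -3.63 ± 1.335 (adjusted p = 0.0207) with the 0 included and 0.70 ± 0.208 (adjusted p = 0.00439) with it treated as missing, so the direction depends on this library. With only the WT 24 h groups in the fit the first of these had an adjusted p of 0.308. At 1, 3 and 6 h Psap did not pass, with changes of -0.16, -0.20 and -0.16. Their SE was 1.236 with the 0 included and 0.17 with it treated as missing, and they passed in neither fit. In every IL-4 sample at 1 and 3 h Psap was below all controls of that time.

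Lipa, the acid lipase that frees cholesterol from its esters, fell at 6 h from 697 ± 77.2 to 391 ± 44.2 FPKM (-0.83 ± 0.309, adjusted p = 0.0285) and was level at 24 h (0.03). Its call at 6 h was lost in 5 of 8 omissions of a library, with adjusted p up to 0.0683. Npc1 and Npc2, the cholesterol exporters, and Grn, progranulin, did not pass at any time. Of these, Grn was lower in every IL-4 sample than in every control at 24 h, at 873 ± 51.6 against 1094 ± 117 FPKM (-0.32, adjusted p = 0.206).

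Of the 6 membrane proteins, 2 were lower at 3 h, 1 at 6 h, and at 24 h 1 was higher and 1 lower. Of all loci, 12.5% passed lower at 3 h and 19.2% at 6 h, and at 24 h 23.4% higher and 31.6% lower. Cd63, a tetraspanin of late endosomes and lysosomes, was at 164, 177 and 196 FPKM after 24 h of IL-4 and at 104, 115, 114 and 125 FPKM in the controls. The groups were apart, and the rise was 0.64 ± 0.206 (adjusted p = 0.0091). At 6 h they overlapped, at 104, 105, 90.8 and 108 against 101, 90.2, 103 and 105 FPKM. Of the Cd63 exon sequence, 11.1% of 50-base stretches recur elsewhere, mainly in the pseudogene Cd63-ps. Mcoln1, the calcium channel TRPML1, passed lower at 3 and 6 h (-0.23 at both), and Cln3, a membrane protein of incompletely known function, at 3 h (-0.28) and 24 h (-0.23). Cln3 lost its call at 3 h without IL-4 replicate 2 (adjusted p = 0.0731) and at 24 h in 6 of 7 omissions of a library, and Mcoln1 in 5 of 8 at 3 h and 2 of 8 at 6 h. Lamp1, Lamp2 and Cd68, the heavily glycosylated coat proteins, did not pass at any time, with 24 h changes of 0.14, -0.27 and 0.16.

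In Stat6-/- cells no member passed at any time, and neither did any of the 11146 loci (0%) in limma. At an unadjusted p under 0.05 there were also 0 members at each of the 4 times, and the analysis of variance with Tukey's adjustment gave 0. The largest absolute change among the 47 genes was 0.41, 0.22, 0.27 and 0.20 at 1, 3, 6 and 24 h. With 2 libraries a group that differed from each other, smaller changes were not detectable in this fit, which counts the gap between replicates as error. With the replicate block 1 member had an unadjusted p under 0.05 at 3 h and 0 at 1, 6 and 24 h, and none passed. For Atp6v1b2 the 24 h samples in the order of replicates 1 and 2 were at 334 and 159 FPKM with IL-4 and at 349 and 153 FPKM without. For Sgsh they were at 17.5 and 17.1 FPKM with IL-4 and at 16.5 and 21.4 FPKM without, and for Ctsl at 1058 and 779 against 1068 and 718 FPKM. At 6 h Sgsh was at 19.7 and 11.6 FPKM with IL-4 and at 19.8 and 15.8 FPKM without. The WT response of Sgsh minus its Stat6-/- response was then -0.14 and did not pass (limma, adjusted p = 0.704). For Atp6v1b2 and Ctsl the treated and control values of 1 replicate number were closer than the replicates were.

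The difference between the genotypes' responses was tested directly. At 24 h 12 members passed, 7 with a more positive response in WT (Atp6v1b2, Ctsl, Ctsz, Atp6v1h, Tpp1, Ctsa and Gm2a) and 5 with a more negative one (Sgsh, Ppt1, Idua, Neu1 and Smpd1), beside 12.2% and 14.8% of all loci. The widest of these was Sgsh, at -1.66 ± 0.185 (adjusted p = 9.96e-09), followed by Atp6v1b2 at 1.32 ± 0.359 (adjusted p = 0.0053). The difference of Tpp1 was 0.53 ± 0.0969 (adjusted p = 7.17e-05) and that of Ctsl 0.80 ± 0.186 (adjusted p = 0.00122). Ctsc, whose Stat6-/- replicates were far apart, did not pass (-1.57 ± 0.633, adjusted p = 0.0613). The count depended on the Stat6-/- libraries, as it was 3 without control replicate 1, 21 without control replicate 2, 20 without IL-4 replicate 1 and 7 without IL-4 replicate 2. With the replicate block it was 21. Sgsh, Tpp1 and Gm2a passed in each of the 11 omissions. Without Stat6-/- control replicate 1 the difference was 0.73 for Atp6v1b2, 0.24 for Atp6v1h, 0.42 for Ctsz, 0.51 for Ctsl and 0.33 for Ctsa. It was then -0.31 for Idua, -0.47 for Ppt1, -0.39 for Neu1 and -0.20 for Smpd1. Without Stat6-/- IL-4 replicate 2 it was 0.79 for Atp6v1b2, 0.29 for Atp6v1h, 0.38 for Ctsz and 0.28 for Ctsa. It was also -0.42 for Ppt1 and -0.38 for Smpd1, and without Stat6-/- IL-4 replicate 1 it was -0.33 for Neu1. None of these passed. Leaving out a single WT library also ended the calls of Ppt1, Smpd1, Neu1 and Ctsz (adjusted p up to 0.0836).

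At 6 h Ids (0.51) and Atp6v1b2 (1.07) responded more positively and Neu1 (-0.45) more negatively in WT, beside 9.29% and 7.19% of loci. At 3 h Ids (0.59) and Atp6v1b2 (1.04) and, in the other direction, Tfeb (-0.75) did so, beside 6.98% and 4.22%. With FPKM sums made equal the split was 2 and 0 at 3 h and 1 and 1 at 6 h, and with quantile normalization 2 and 2 at 6 h. With the replicate block 10 members passed at 3 h and 8 at 6 h. At 1 h none passed by limma, 2 had an unadjusted p under 0.05 and 0 passed in the analysis of variance, where 2.21% of loci were higher and 1.15% lower. Each of the 6 calls at 3 and 6 h was lost in some omission of a library, from 3 of 12 for Ids at 3 h to 11 of 12 for Ids at 6 h.

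**Figure D5:**
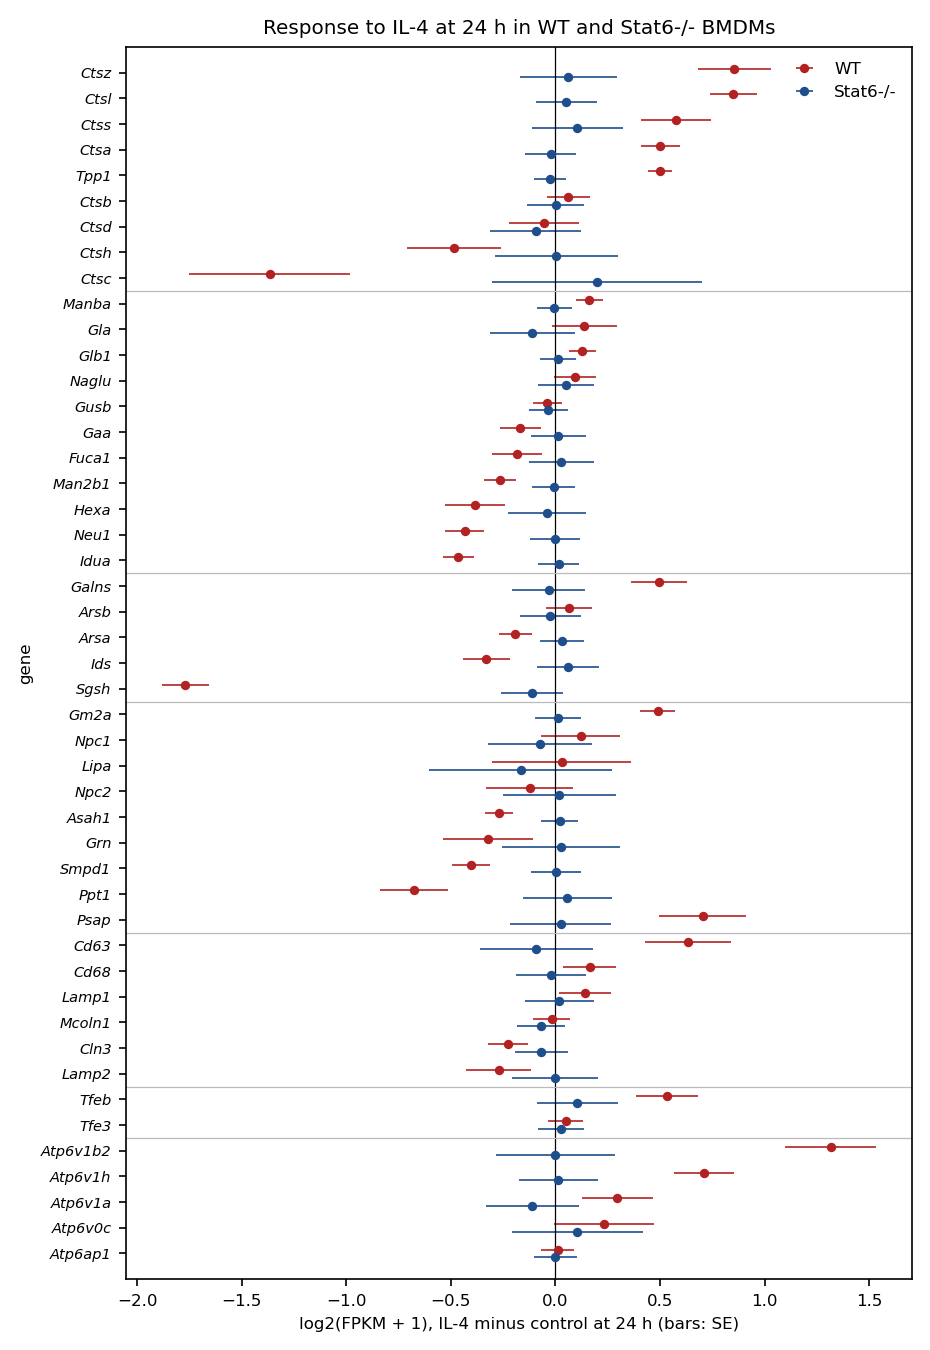
Change with 24 h of IL-4 of the 47 genes in WT (red) and Stat6-/- (blue), as log2(FPKM + 1) of IL-4 minus control with bars of 1 SE, grouped by role. Psap is drawn with its value of 0 treated as missing. The WT points run from -1.77 for Sgsh to 1.32 for Atp6v1b2, while the Stat6-/- points stay within 0.20 of 0.

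The WT responses at 6 and 24 h were also compared directly. In the test of the 24 h response against the 6 h response 8 members were more positive later, beside 11% of loci, and 7 more negative, beside 16.8%. The first were Ctsl (1.27), Gla (0.72), Galns (0.72), Tfeb (0.70), Ctss (0.62), Tpp1 (0.53), Ctsa (0.51) and Gm2a (0.47). The second were Ctsc (-1.66), Sgsh (-1.43), Ids (-0.91), Ppt1 (-0.64), Smpd1 (-0.43), Idua (-0.32) and Asah1 (-0.26). Neither Atp6v1b2 nor Atp6v1h is among them, their changes at 6 h being 1.12 and 0.43 and those at 24 h 1.32 and 0.71. With quantile normalization the split was 10 and 5, and with the Psap value of 0 treated as missing it was 9 and 7, Psap being the added gene (0.86, adjusted p = 0.0136). Calls were lost on leaving out a library for Ctss (8 of 15 omissions), Asah1 (6 of 15) and Ppt1 (3 of 15).

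Cell markers also moved at 24 h in WT. Of 6 macrophage markers tested, 4 passed lower and none higher, Emr1 from 1093 ± 86.1 to 473 ± 4.86 FPKM and Mertk from 26.0 ± 1.82 to 6.41 ± 1.63 FPKM. At 3 h 1 of the 6 passed lower and at 6 h 2. Of all loci, 12.5%, 19.2% and 31.6% passed lower at 3, 6 and 24 h. Another marker, Lyz2, had a listed value of 0 in 7 samples, among them 2 of 4 WT controls of 0 h. Their part in the changes of the 47 genes was not tested.

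Without IL-4, a few members differed between genotypes. Gusb, beta-glucuronidase, was at 275 and 261 FPKM in Stat6-/- controls at 0 h and at 337, 324, 332 and 322 FPKM in WT controls (-0.29, adjusted p = 0.0416). Arsb was at 7.62 and 6.64 FPKM against 8.40, 11.4, 11.2 and 12.1 FPKM (-0.53, adjusted p = 0.0195). These 2 were the members that passed at 0 h, both lower in Stat6-/-, where 1.51% of loci were. At 1 h Gusb (-0.34), Arsb (-0.68) and Glb1 (-0.31) passed lower, beside 1.1% of loci, and at 3 h Gusb (-0.37) and Glb1 (-0.34), beside 0.619%. At 6 and 24 h none passed by limma, where 0.413% and 0.108% of loci passed in either direction, with 7 and 3 members at an unadjusted p under 0.05 and 1 and 0 in the analysis of variance. None of these calls held when the spread was taken from the 2 groups alone (adjusted p from 0.111 to 0.446), and each was lost on leaving out at least 1 library. Markers of other cells also differed between these controls. Neutrophil marker sums at 0 h were 736 to 836 FPKM in Stat6-/- and 404 to 528 FPKM in WT, with 3 of 5 markers passing higher in Stat6-/-, and in 1 h controls 709 to 1031 against 295 to 535 FPKM. Mast cell or basophil sums at 0 h were 1.36 to 1.72 against 0.351 to 0.632 FPKM. Their part in these differences was not tested.

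Some members differed between WT controls of 24 h and 0 h. From 0 to 24 h 3 passed higher, beside 5.67% of loci, and 5 lower, beside 11.6%. Ctsl went from 568 ± 71.5 to 789 ± 11.8 FPKM (0.48, adjusted p = 0.00125), Tfe3 from 47.1 ± 5.69 to 57.9 ± 4.14 FPKM and Asah1 from 216 ± 24.6 to 244 ± 4.67 FPKM. Arsb went down from 10.8 ± 1.64 to 6.86 ± 0.873 FPKM (-0.58, adjusted p = 0.000107), along with Naglu (-0.38), Galns (-0.36), Ctsa (-0.30) and Glb1 (-0.17). Leaving out a library ended the call of Galns in 6 of 8 cases (adjusted p up to 0.144), those of Asah1 and Glb1 in 5 of 8 each, and that of Ctsa without 24 h replicate 2 (adjusted p = 0.0767). Without 0 h replicate 1 the change of Asah1 was 0.10, and without 24 h replicate 2 that of Glb1 was -0.09. With FPKM sums made equal the split was 2 higher and 11 lower. In Stat6-/- controls none passed by limma, where 0.718% of loci did in either direction, with 8 members at an unadjusted p under 0.05, 0 in the analysis of variance and 10 with the replicate block.

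Other genes of the lysosome were examined from lists made with earlier results known. Of 28 tested loci of further hydrolases, 6 passed higher and 8 lower at 24 h, where 23.4% and 31.6% of all loci did, shares that also stand beside the 24 h counts of the lists that follow. Pla2g15, the lysosomal phospholipase A2, rose at 1, 3 and 6 h (0.78, 1.44 and 1.35) and was at 96.1, 102 and 106 FPKM at 24 h against 110, 88.4, 101 and 100 FPKM. Ctsk, the collagenolytic cathepsin of osteoclasts, was at 14.5, 25.2 and 31.0 FPKM at 24 h of IL-4 against 5.38, 3.84, 8.49 and 12.0 FPKM (1.58 ± 0.587, adjusted p = 0.0218).

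Of 19 further membrane proteins and transporters, 4 passed higher and 4 lower at 24 h, and 6 and 5 at 6 h. At 6 h 22% of all loci passed higher and 19.2% lower. Cd164, a sialomucin, was at 99.4, 99.0, 91.2 and 92.1 FPKM at 6 h of IL-4 against 22.7, 18.4, 21.2 and 23.8 FPKM, the highest change of the list (2.10). Cd36, a scavenger receptor, rose at 24 h to 1419, 1587 and 1547 FPKM from 489, 637, 570 and 755 FPKM (1.32). The channel gene Tpcn1 fell, at 6 h to 17.6, 18.8, 17.8 and 21.4 FPKM from 47.9, 42.4, 44.5 and 47.7 FPKM (-1.23).

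In the list of 15 genes around TFEB, 2 passed higher and 5 lower at 24 h, and 4 and 5 at 6 h. The shares of all loci at 6 h were again 22% and 19.2%. Tfec, another MiT/TFE factor, was at 49.4, 46.9, 73.7 and 89.7 FPKM after 1 h of IL-4 against 11.4, 11, 15.5 and 16.4 FPKM, and at 114, 103, 122 and 123 FPKM after 3 h against 13.1, 13.8, 20.2 and 22.0 FPKM. It rose by 2.14 and 2.70 at these times, at which Tfeb was lower. Fnip2, a partner of folliculin in the control of TFEB by mTORC1, was at 18.2, 19.4, 18.7 and 15.4 FPKM at 3 h against 49.1, 44.3, 47.5 and 41.0 FPKM (-1.30). Of 13 sorting genes, 4 passed higher and 3 lower at 24 h, and of 4 cathepsin inhibitors tested, 1 passed higher.

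Some values share sequence with neighbours. The exons of 30 of the 47 genes overlapped no other annotated gene, and in 8 more than 10% of the exon bases did. Strand use in counting was not given in the sources used here, so that reads of opposite genes cannot be told apart. Ctsa shared 17.4% of its exon bases with Pltp on the opposite strand, which was at 791 FPKM in WT controls and 285 FPKM with IL-4 at 24 h. Ctsl shared 26.8% with the antisense gene Gm47123, and Sgsh 21.6% with Card14, whose level did not exceed 0.0274 FPKM in any sample. The largest shares were those of Arsb, at 39.9% with Gm26527 on the opposite strand, and Ctsd, at 34.4% with Gm49369 on the same strand. No level was available for Gm47123, Gm26527 or Gm49369. Hexa shared 12.8% with Tmem202 on the opposite strand, at 1.09 FPKM in WT controls and 6.45 FPKM with IL-4 at 24 h. Sgsh and Gaa lie 57.8 kb apart on chromosome 11 (Gaa at 24 h -0.17, adjusted p = 0.149), and Smpd1 and Tpp1, which moved in opposite directions at 24 h, lie 186.5 kb apart on chromosome 7.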

How the data were processed

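RNA of 53 BMDM samples in 18 groups was sequenced after poly-A selection with TruSeq libraries. The authors aligned reads with TopHat2 2.0.7 and estimated FPKM with Cufflinks 2.0.2 on mm10, per the labels' processing notes. The annotation and the strand setting are not given in the sources used here. The deposited values were FPKM per locus and sample. They hold no counts, so absolute depth is unknown, and only the relative depth of samples was recovered from 7647 low loci (91.7% of pairwise ratios within 2%). No sample pair held identical values. The 4316 values below 1e-06 were set to 0.

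Samples were joined on locus and gene name (Python 3.11.15, pandas 2.3.3, numpy 2.4.6), and the 47 genes were found by name. Of all loci, those reaching 1 FPKM in any sample entered the test, as log2(FPKM + 1) with limma 3.58.1 in R 4.3.3, as 18 group means over 53 samples (35 residual degrees of freedom). All p-values are two-sided, with Benjamini-Hochberg adjustment over 11146 loci per comparison and a threshold of 0.05, and a 2-fold call also needed a log2 change of at least 1. On this scale the change of low genes is understated. The script was tested on simulated data. Alternatives were a pseudocount of 0.1, no filter, quantile normalization, equal FPKM sums, only the groups compared and the replicate number as a block. Others were leaving out each library and an analysis of variance over the 18 group means with Tukey's adjustment. The study used a 2-way analysis of variance with Tukey's post hoc test and a 2-fold threshold. Differences between responses hold more than 2 group means, for which this adjustment is not Tukey's own statistic, so those counts are only a guide. Treating the Psap value of 0 as missing was added after seeing the data.

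Genes given by sample were those called 2-fold with IL-4 in WT, filled to 10 by size of change, with Tfeb and Tfe3, and up to 3 for each further list. A gene that this rule selects is not reported here. Members and lists were chosen with earlier results of these data known. The WT samples of a group came from separate animals, per the study. Where nothing says so for Stat6-/-, p-values measure only the spread between these samples. Whether replicate numbers pair samples was checked by the correlation of deviations from group means. Every pair was over 0.1 in WT at 3 h (0.316 to 0.479) and 6 h (0.105 to 0.561), but not at 1 h (lowest 0.027) or 24 h (lowest 0.096), so that blocked counts stand beside the 3 and 6 h results. IL-4 and control samples of the same number in Stat6-/- correlated at 0.791 to 0.900, but with 2 replicates both pairs necessarily have the same value, and all blocked counts that differ by over 1.5 times are in the closing section. Figures were drawn with matplotlib 3.10.9.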

Additional observations from a re-analysis of the deposited data

Results flagged for a closer look

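In 7 of 96 groups of 4 samples of the 12 members given by sample, 1 sample stood apart from the other 3 by Dixon's criterion, where chance gives about 1 in 20 groups, or 4.8. For Sgsh this was WT 6 h control replicate 2, at 16.8 FPKM. For Ctsz it was replicate 1 of the WT 0 h control, at 1056 FPKM, and replicate 1 of the WT 6 h control, at 548 FPKM. For Atp6v1h it was replicate 4 with IL-4 at 1 h, at 50.1 FPKM, and at 6 h, at 61.4 FPKM. Ppt1 was at 62.8 FPKM in replicate 4 with IL-4 at 6 h, and Tfe3 at 51.7 FPKM in replicate 2 of the 24 h control.

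The response to IL-4 differed between genotypes, tested as an interaction, for 18 values. As WT minus Stat6-/- on the log2 scale, these were Tfeb -0.75, Ids 0.59 and Atp6v1b2 1.04 at 3 h, and Neu1 -0.45, Ids 0.51 and Atp6v1b2 1.07 at 6 h. At 24 h they were Sgsh -1.66, Ppt1 -0.73, Idua -0.48, Neu1 -0.43, Smpd1 -0.41, Gm2a 0.48, Ctsa 0.52, Tpp1 0.53, Atp6v1h 0.70, Ctsz 0.79, Ctsl 0.80 and Atp6v1b2 1.32.

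The WT response differed between 24 h and 6 h for 15 values. These were Ctsc -1.66, Sgsh -1.43, Ids -0.91, Ppt1 -0.64, Smpd1 -0.43, Idua -0.32, Asah1 -0.26, Gm2a 0.47, Ctsa 0.51, Tpp1 0.53, Ctss 0.62, Tfeb 0.70, Galns 0.72, Gla 0.72 and Ctsl 1.27.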

How the results depend on the processing

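The pseudocount of 0.1, no filter and the missing Psap value left each of the 20 counts of passing members within 1.5 times. With only the groups compared, WT IL-4 gave 5, 19 and 21 members at 1, 3 and 6 h, the genotype difference in response 1 at 1 h and 3 at 24 h, and the genotype comparison of controls 0 at 0, 1 and 3 h. With the replicate block, WT IL-4 gave 8, 23 and 21 at 1, 3 and 6 h, the genotype difference in response 2, 10, 8 and 21 at 1, 3, 6 and 24 h, the 24 h minus 6 h response 23, and controls at 24 h minus 0 h 19 in WT and 10 in Stat6-/-. No paired analysis was possible between genotypes' controls because replicate numbers are nested in genotype. The analysis of variance gave 5, 6 and 13 for WT IL-4 at 3, 6 and 24 h, 0, 0 and 4 for the genotype difference at those times, 7 for 24 h minus 6 h, 1 for genotype controls at 6 h and 4 for WT controls over time. Equal totals gave 1 for WT IL-4 at 1 h, 4 for genotype controls at 0 h and 13 for WT controls over time. Quantile normalization gave 4 for genotype controls at 3 h. All of these are counts of members only, and the shares of all loci under the same settings are not given.

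Leaving out 1 library gave 7 to 13 members for WT IL-4 at 3 h, with 7 without IL-4 replicate 2. It gave 0 to 1, 0 to 4, 1 to 3 and 3 to 21 for the genotype difference in response at 1, 3, 6 and 24 h. For genotype controls it gave 0 to 2, 0 to 3, 0 to 2 and 0 to 2 at 0, 1, 3 and 24 h, and for controls over time 5 to 8 in WT and 0 to 5 in Stat6-/-. An arm left with 1 sample was assumed to vary like the other groups. Psap at 24 h reversed to 0.70 with its 0 missing or without replicate 3, in a range of -5.87 to 0.70. For the members given by sample, 277 of 312 values under other settings and 326 of 373 with a library left out kept direction and side of the threshold, 34 and 46 lost the threshold, and 1 and 1 reversed (Psap). Except where construction shows it (fewer samples, a 0 removed), the cause was not tested. The absolute depth is unknown, and 2 libraries a group limit what the Stat6-/- samples can show.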
